A study of Mus musculus with 8 samples.

Results

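A small fraction of the fibroblasts (FBs) of mouse skin carried transcripts of at least 2 of Ptx3, Ccl2 and Il6, and this population is described here. Its cells were chosen by their measured UMI counts (unique molecular identifiers, each standing for 1 captured RNA molecule). A barcode counted as a gated FB if it had 500 to 4000 detected genes, no more than 20000 UMIs, mitochondrial transcripts at 10% or less, if Col1a1, Col1a2 and Col3a1 together made up at least 1% of its UMIs, and if it had no Ptprc UMI and fewer than 3 Rgs5 UMIs. Gated FBs with at least 1 UMI of at least 2 of Ptx3, Ccl2 and Il6 form the population, called Ptx3/Ccl2/Il6 FBs below. Of 26231 barcodes in all, 11118 were within the limits on genes, UMIs and mitochondrial UMIs, 2003 were gated FBs and 181 were Ptx3/Ccl2/Il6 FBs. A further 437 gated FBs had exactly 1 of the 3 genes and 1385 had none, and the latter are the comparison class.

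The data are 10x Genomics single-cell libraries of dorsal skin from female BALB/c mice of 14 to 16 weeks, 4 injected with PBMCsec and 4 with vehicle, each library counted as 1 replicate, so that p-values measure the spread between libraries. PBMCsec is the mixture of factors that irradiated human peripheral blood mononuclear cells release into their medium. The study's methods describe mice with healed full-thickness wounds whose scars were injected with PBMCsec, medium or saline. The series itself is titled for work on mast cells and basophils, and nothing in its labels says whether the skin was scarred. The labels give neither the time point nor the control solution of a library, so libraries were grouped by PBMCsec and vehicle alone. PBMCsec libraries held 18578561 to 37880651 UMIs and vehicle libraries 14753926 to 33333619. The cells had passed through enzymatic dissociation of the skin and a sort for living cells, steps that all 8 libraries share.

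Ptx3 encodes pentraxin 3, a secreted pattern recognition molecule that also binds hyaluronan-associated matrix. Ccl2 encodes the chemokine that recruits monocytes through the receptor CCR2, and Il6 encodes interleukin-6, which signals through gp130 and STAT3. FBs make all 3 after exposure to IL-1 or TNF, whose signals reach the nucleus through NF-kB and AP-1 transcription factors, and NF-kB at the same time switches on its own inhibitors such as Nfkbia and Tnfaip3. Such FBs are described in early wounds and in inflamed skin, and the same immediate-early and heat shock genes are also known to rise while tissue is dissociated.

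The stretches of DNA before the start sites of 4 genes are shown because the results turn on these genes and because NF-kB and AP-1 bind such promoters. They are the 250 bases before the annotated start of Ptx3 (chr3:66219637-66219886, plus strand), Il6 (chr5:30012864-30013113, plus strand), Cxcl1 (chr5:90890995-90891244, plus strand) and Nfkbia (chr12:55492648-55492897, minus strand) from RefSeq (GRCm38.p6), printed 5′ to 3′ in the direction of the gene. Capitals mark matches to the kB motif, to the AP-1 motif TGANTCA or to the cyclic AMP response element TGACGTCA, searched on both strands.
Ptx3: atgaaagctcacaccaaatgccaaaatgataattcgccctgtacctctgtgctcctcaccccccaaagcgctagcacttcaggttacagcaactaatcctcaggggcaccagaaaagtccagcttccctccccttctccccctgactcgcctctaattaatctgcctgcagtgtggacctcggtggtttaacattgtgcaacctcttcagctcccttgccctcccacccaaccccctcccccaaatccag
Il6: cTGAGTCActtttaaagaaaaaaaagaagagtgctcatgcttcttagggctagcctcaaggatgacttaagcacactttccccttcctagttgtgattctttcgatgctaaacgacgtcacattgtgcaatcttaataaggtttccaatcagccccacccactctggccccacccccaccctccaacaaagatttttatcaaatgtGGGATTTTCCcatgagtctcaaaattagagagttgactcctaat
Cxcl1: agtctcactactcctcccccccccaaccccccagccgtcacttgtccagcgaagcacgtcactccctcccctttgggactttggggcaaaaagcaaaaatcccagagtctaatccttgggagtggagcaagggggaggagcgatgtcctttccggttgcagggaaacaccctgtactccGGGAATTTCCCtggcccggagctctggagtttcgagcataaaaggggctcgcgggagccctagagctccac
Nfkbia: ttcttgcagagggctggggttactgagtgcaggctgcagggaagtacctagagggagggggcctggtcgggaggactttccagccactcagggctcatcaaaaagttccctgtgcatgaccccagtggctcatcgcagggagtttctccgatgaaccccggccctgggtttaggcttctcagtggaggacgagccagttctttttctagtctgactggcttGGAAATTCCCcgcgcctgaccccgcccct
The Il6 stretch held a kB match, GGGATTTTCC, between 44 and 35 bases before the start, and an AP-1 match between 249 and 243 bases before it. The Cxcl1 stretch held overlapping kB matches on the 2 strands between 71 and 61 bases before the start, and Nfkbia held a kB match between 29 and 20 bases before its start. The Ptx3 stretch held none of the 3 motifs in this window. Of 32851 promoter windows of the same length, 3.9% held a kB match, 6.75% an AP-1 match and 1.55% a cyclic AMP response element. The stretches of other genes named below were searched too. Ptgs2, Icam1, Socs3 and Bcl3 held none of the 3 motifs, Has1 held a cyclic AMP response element, Tnfaip6 an AP-1 match and Csrnp1 AP-1 matches in 1 of its 4 windows, all without a kB match. Tnfaip3 held 2 kB matches and an AP-1 match in 1 of its 2 windows. The sequence table had no entry for Ccl2, Ccl7, Nfkbiz and Gm12840.

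Ptx3 was the most widely detected of the 3 genes and Il6 the rarest. Among the 2003 gated FBs, 463 cells (23.1%) held a Ptx3 UMI, 283 (14.1%) a Ccl2 UMI and 82 (4.09%) an Il6 UMI. Within the population, 114 cells held Ptx3 and Ccl2 without Il6, 25 held Ptx3 and Il6, 13 held Ccl2 and Il6, and 29 held all 3. The 29 cells with all 3 genes also held more of each, with a median of 33 Ptx3, 14 Ccl2 and 3 Il6 UMIs per cell, against 5 Ptx3 and 7 Ccl2 UMIs in cells with Ptx3 and Ccl2. Of these 29 cells, 26 came from PBMCsec libraries and 3 from vehicle libraries. These are the values the rule used and are given as a description.

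At the edges of the rule, 152 members held 2 of the 3 genes, and 16 of all 181 reached the threshold with only 2 UMIs over the 3 genes. The median member held 16 UMIs over the 3 genes and the highest 768. Just outside, 241 of the 437 cells with a single gene held it at 1 UMI, and 81 held it at 5 or more UMIs. The collagen limit ran through the population. A further 107 cells met every other condition with collagens under 1% of UMIs (median 0.672%). Of these, 92.5% held Dcn and 87.9% Pi16, both FB genes, 69.2% held Pdgfra, 26.2% held the keratinocyte keratin Krt14, 3 cells held Lyz2, and 1 cell each held Pecam1, Cdh5 and Cd68. Of these 107 cells 73 came from PBMCsec 3 alone, 17 from PBMCsec 1, and 9 from the 4 vehicle libraries together. At the mitochondrial limit, 12 further cells had over 10% mitochondrial UMIs.

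Free RNA in the droplets can place UMIs into cells that do not express a gene, so the 3 genes were counted in other cells. In 1871 cells gated as keratinocytes (median 9516 UMIs, against 7926 in gated FBs), 0.855% held Ptx3, 4.12% Ccl2 and 0.321% Il6, and 0 of 1871 held at least 2 of the 3, which allows a share of up to 0.16% (3 counts of 1871, while the upper bound of the exact 95% interval was 0.197%). In 1063 cells gated as T cells (median 3338 UMIs), 0.847% held Ptx3, 0.753% Ccl2 and 0.0941% Il6, and 1 cell held at least 2. By library, Ccl2 was in 8.53% of PBMCsec 4 keratinocytes against 7.36% of its gated FBs, so the FB share was no higher there. Of the 182 Ccl2 UMIs in the gated FBs of that library, 139 were in its 11 members. Whether free RNA or the keratinocytes themselves gave the keratinocyte share was not tested. Ptx3 was in 6.9% of the 29 keratinocytes of vehicle 1 against 49.1% of its gated FBs. Macrophages make Ccl2 themselves and are no such reference. In 197 cells with C1q transcripts, a macrophage gate chosen after the data were seen, 25.4% held Ccl2, 2.03% Ptx3 and 2.54% at least 2 of the 3. The share with at least 2 genes in gated FBs was 9.04%, with an exact (Clopper-Pearson) 95% interval from 7.82% to 10.4%. These intervals cover counting error only.

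The label of FBs held for these cells. Members carried Dcn at 10649 CPM (UMIs of a gene scaled to a common library total, summed per library, mean of 6 libraries), against 11439 in FBs with none, and 91.2% of them held a Pdgfra UMI, against 86.1%. They had more UMIs per cell than FBs with none (median 10158 against 7493), lower mitochondrial shares (3.42% against 4.6%) and lower collagen shares (1.81% against 2.37%). No member's barcode occurred in a second library, and 1 barcode was shared among the gated FBs of all libraries.

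Members were found in every library, at shares that differed more within each treatment than between treatments. After PBMCsec, the share of gated FBs that were members was 14.9% (26 of 175 cells), 10.2% (9 of 88), 15.4% (78 of 505) and 3.68% (11 of 299) in libraries 1 to 4. After vehicle it was 17.5% (10 of 57), 20% (8 of 40), 5.59% (27 of 483) and 3.37% (12 of 356). The groups overlapped, with means of 11.1% ± 5.44 in the PBMCsec group and 11.6% ± 8.36 in the vehicle group (SD over 4 libraries each) and a difference of -0.574 percentage points (exact two-sided permutation test over libraries, p = 0.914). PBMCsec 3 alone supplied 43.1% of all members.

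The direction changed after thinning. With 1885 gated FBs thinned to 2000 UMIs before the 3 genes were read, and the 118 shallower cells left out, the share was 6.22% ± 2.88 after PBMCsec and 3.17% ± 1.84 after vehicle (SD, n = 4 each), a difference of 3.05 percentage points (exact permutation test, p = 0.114). Vehicle 1 fell from 17.5% to 3.85% and vehicle 2 from 20% to 5.41%. The share of cells with all 3 genes was 2.86%, 3.41%, 2.97% and 1.0% in PBMCsec libraries 1 to 4 and 0%, 2.5%, 0.414% and 0% in vehicle libraries 1 to 4 (exact permutation test, p = 0.0571). After thinning and with all 3 genes, each PBMCsec library lay above the vehicle library of the same number. A sign-flip test over 4 such pairs cannot give a p under 0.125. A collagen limit of 0.5%, chosen after the data were seen, gave a difference of 1.32 points. Of these 3 changes, none moved the p under 0.05.

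**Figure D1:**
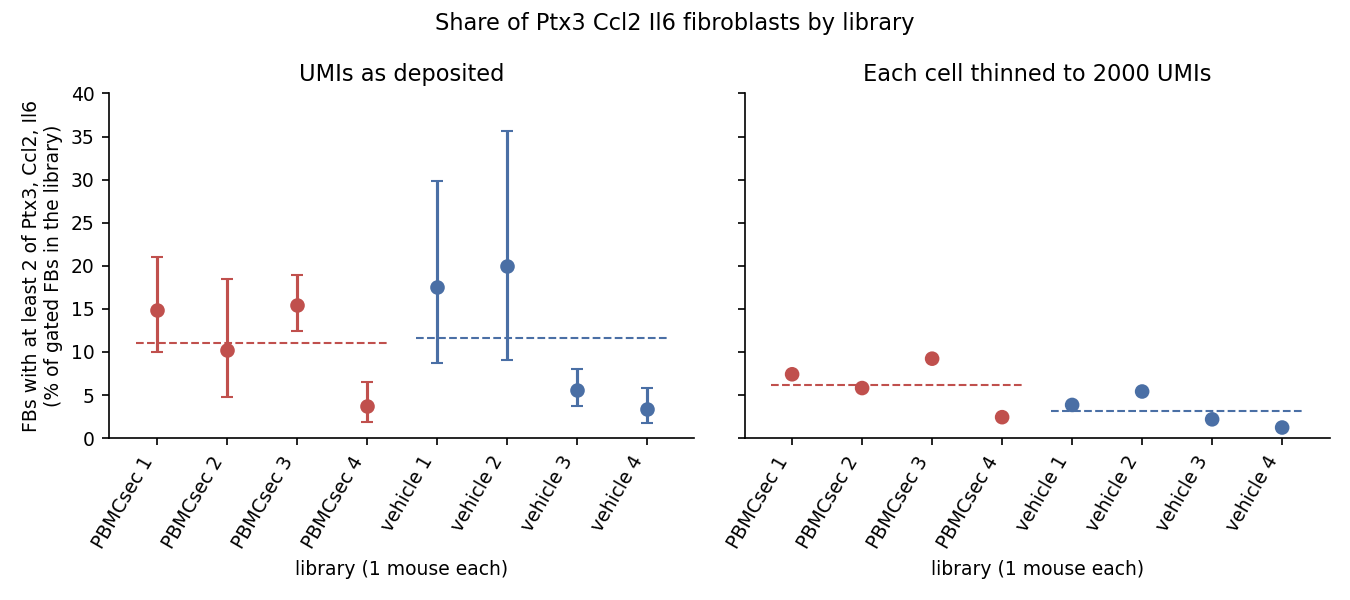
Share of gated FBs with at least 2 of Ptx3, Ccl2 and Il6 (% of gated FBs, y axis) in each library (x axis, red PBMCsec, blue vehicle), with UMIs as deposited (left, bars are exact 95% binomial intervals) and after thinning each cell to 2000 UMIs (right, no intervals drawn). Dashed lines are group means. On the left the PBMCsec libraries lie between 3.68% and 15.4% and the vehicle libraries between 3.37% and 20%. On the right the PBMCsec mean is 6.22% against 3.17%.

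Summed over all gated FBs, Il6 was higher in most PBMCsec libraries and Ptx3 and Ccl2 overlapped widely. Il6 stood at 107, 27.1, 37.9 and 5.16 CPM in PBMCsec libraries 1 to 4 and at 2.0, 14.2, 5.08 and 0 CPM in vehicle libraries 1 to 4. PBMCsec 4 lay within the vehicle range and the other 3 PBMCsec libraries lay above it. The log2 fold change was 3.58 ± 0.96 (SE), with an unadjusted p of 0.00274 that did not pass adjustment over all 10115 genes (edgeR adjusted p = 1.0), and the exact permutation test gave p = 0.0571. The 4 vehicle libraries held 23 Il6 UMIs in all. Ptx3 was at 1027, 422, 517 and 93.3 CPM after PBMCsec and at 485, 391, 150 and 82.5 CPM after vehicle. Its log2 fold change was 0.93 ± 0.63 (SE, edgeR adjusted p = 1.0, exact permutation p = 0.4). Ccl2 was at 743, 169, 771 and 72.2 CPM after PBMCsec and at 158, 576, 195 and 104 CPM after vehicle, and its log2 fold change was 0.81 ± 0.68 (SE, edgeR adjusted p = 1.0, exact permutation p = 0.714). PBMCsec 4 and vehicle 4 held the lowest Ptx3 and Ccl2 levels of their groups. The summed level and the share of FBs with a gene did not run in parallel, since Ptx3 was found in 49.1% and 50.0% of FBs of vehicle 1 and 2 and in 27.4% of those of PBMCsec 1, where its summed level was highest.

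**Figure D2:**
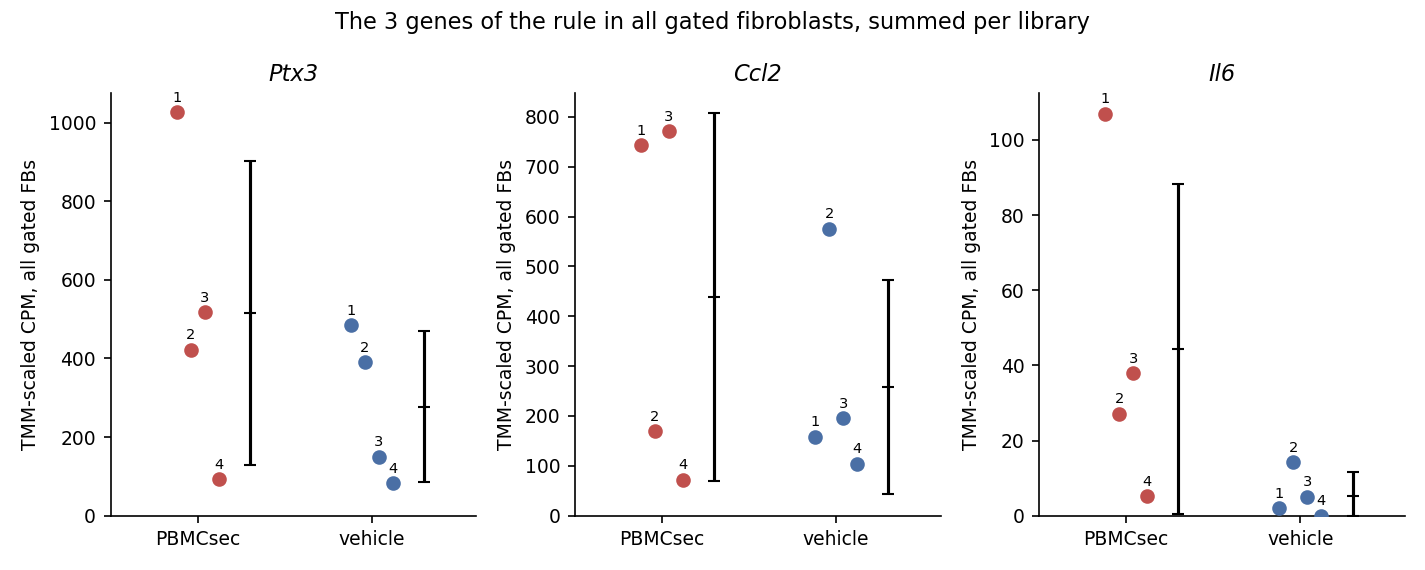
Ptx3, Ccl2 and Il6 in all gated FBs, summed per library (TMM-scaled CPM, linear y axes from 0), with the library number at each point and the mean ± SD (n = 4) in black, cut at 0 where the SD exceeds the mean. Il6 lies between 5.16 and 107 CPM after PBMCsec and between 0 and 14.2 CPM after vehicle.

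The remaining genes were compared between members and FBs with none within each library. Counts were summed per library and class in the 6 libraries with at least 10 cells of each class (PBMCsec 1, 3 and 4, vehicle 1, 3 and 4), with the library as a block. PBMCsec 2 had 9 members and vehicle 2 had 8, so both are outside this fit. The genes of the rule and mitochondrial genes were left out. The cells of both classes come from the same animals and the classes were defined on the same cells, so the test asks which other genes went with the 3 in these libraries. Of 6167 genes tested, 188 (3.05%) were higher and 127 (2.06%) lower in members at an edgeR adjusted p under 0.05, 5.11% in all, and the median log2 difference over all tested genes was -0.06. The balance of rises and falls did not hold in every setting. With cells thinned to 2000 UMIs, of 1536 genes tested 40 were higher and 73 lower (median -0.25), and in the vehicle libraries alone 103 were higher and 111 lower. Of these 315 genes, 196 were also called in the 3 PBMCsec libraries alone, and 115 of the 212 that could be tested were called in the 3 vehicle libraries alone. These are the libraries of the full fit, so the counts are no independent support.

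Of 5 tested CXC chemokines 1 rose, and of 3 tested CC chemokines 2. Cxcl1, which draws neutrophils through CXCR2, was at 5673, 3716 and 1263 CPM in members of PBMCsec 1, 3 and 4 and at 430, 1042 and 953 CPM in those of vehicle 1, 3 and 4. In FBs with none it was between 19.4 and 99.1 CPM, and the classes did not overlap. The log2 difference was 5.53 ± 0.40 (SE, edgeR adjusted p = 7.92e-07). Ccl7, a monocyte chemokine encoded beside Ccl2 on chromosome 11, was between 426 and 2316 CPM in members and between 21.8 and 93.2 CPM in FBs with none (log2 difference 4.47 ± 0.23, edgeR adjusted p = 1.83e-08). Ccl11, which draws eosinophils, was high in both classes, at 986 ± 151 against 530 ± 139 CPM (SD, n = 6), and rose by 0.92 ± 0.16 on the log2 scale. After thinning to 2000 UMIs its log2 difference was 0.45 (edgeR adjusted p = 0.206), no longer called. Cxcl1 alone was called among the 5 CXC chemokines tested. Cxcl12, the most abundant of them in FBs with none, was at 666 against 879 CPM (log2 difference -0.35 ± 0.28, edgeR adjusted p = 0.581). Of 13 listed CXC and 16 listed CC chemokines, 5 and 3 had enough counts to be tested.

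Among 17 cytokine genes, 5 were tested and 3 rose. Il33, an alarmin of barrier tissue, was at 338 ± 177 CPM in members and 98.4 ± 27.9 in FBs with none (SD, n = 6, log2 difference 1.74 ± 0.23), without overlap. Csf1, the macrophage growth factor, rose by 0.95 ± 0.22, and Tnfsf9 by 2.80 ± 0.50 with an increase in 4 of 6 libraries. On the receiving side, 4 of 13 tested receptor and adaptor genes rose. These were Il1r1, the IL-1 receptor (0.78 ± 0.22), Myd88, its adaptor (1.15 ± 0.28), Il6ra (0.77 ± 0.19) and Il4ra (0.71 ± 0.17). Several of these calls were lost when 1 library was left out. Without PBMCsec 1 those of Csf1 (edgeR adjusted p = 0.104), Il1r1 (0.262), Il6ra (0.138) and Myd88 (0.0997) were lost, and without PBMCsec 3 those of Csf1 (0.152), Il1r1 (0.192), Il6ra (0.13) and Il4ra (0.119). Myd88 was also lost without PBMCsec 4 (0.0574), Il4ra without vehicle 3 (0.119) and Il1r1 without vehicle 4 (0.0952), and DESeq2 did not call Tnfsf9 (0.19) or Il1r1 (0.0572). In the vehicle libraries alone Csf1 was at 0.2, Il1r1 at 0.35 and Il6ra at 0.45, and none of the 3 was called. Il6st, which encodes the shared receptor chain gp130, was at 388 CPM in members and 418 CPM in FBs with none.

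Most tested NF-kB feedback genes were higher in members. Of 21 listed genes 11 were tested and 10 were higher in members, 0 lower, with a median log2 difference of 1.90 against -0.06 over all tested genes. Without the filter on low counts all 21 could be tested and 18 were higher, against 2.32% of the 16963 genes of that fit. Nfkbia, the inhibitor that holds NF-kB in the cytoplasm and whose promoter is shown above, was at 3056, 3392 and 1707 CPM in members of PBMCsec 1, 3 and 4, and at 861, 1537 and 1149 CPM in those of vehicle 1, 3 and 4. FBs with none held 109 to 245 CPM, and the log2 difference was 3.31 ± 0.24 (SE, edgeR adjusted p = 7.92e-07). Tnfaip3, the ubiquitin-editing enzyme A20, rose by 3.46 ± 0.37, and Nfkbiz, an atypical IkB protein, by 2.91 ± 0.24. In vehicle 1 the 2 classes were close for Tnfaip3, at 82.4 against 81.6 CPM. Icam1, an adhesion receptor for leukocytes, rose by 2.03 ± 0.33 in 5 of 6 libraries, and Nfkb1 by 1.26 ± 0.33 in 5 of 6. In the vehicle libraries alone Nfkb1 was at 0.23 and Icam1 at 0.67 (edgeR adjusted p = 0.386), neither called, and the call of Nfkb1 was lost without PBMCsec 1 (0.144), PBMCsec 3 (0.221) or vehicle 4 (0.0699).

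Of 8 tested STAT3 and C/EBP genes, 3 rose and 0 fell. Cebpb, which drives acute-phase genes, was at 422 ± 302 CPM in members and 160 ± 41.5 in FBs with none (log2 difference 1.29 ± 0.28), the kinase gene Pim1 rose by 1.84 ± 0.31 and Socs3, the feedback inhibitor of gp130, by 1.23 ± 0.29 in 4 of 6 libraries. In the vehicle libraries alone Cebpb was at 0.41 (edgeR adjusted p = 0.592), and its call was lost without PBMCsec 1 (adjusted p = 0.0602) or PBMCsec 3 (adjusted p = 0.104). The call of Socs3 was lost without PBMCsec 1 (0.138) or PBMCsec 3 (0.208) and with DESeq2 (0.121), and Pim1 was at 0.84 in the vehicle libraries alone (0.0556).

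Of 20 tested immediate-early genes 11 were higher and 0 lower, with a median log2 difference of 1.04. Zfp36, whose protein degrades cytokine mRNAs, rose by 1.97 ± 0.26, the phosphatase gene Dusp1 by 1.07 ± 0.16, Egr1 by 1.19 ± 0.18, Junb by 1.2 ± 0.25 and Klf6 by 1.0 ± 0.21. The most abundant gene of this list, Fos, was at 1304 CPM in members and 970 CPM in FBs with none, and its log2 difference of 0.50 ± 0.21 did not pass (edgeR adjusted p = 0.214). Of 13 heat shock genes 7 rose and 0 fell, with a median of 0.84. Hspa1a rose by 1.58 ± 0.22 and Hspa1b by 1.61 ± 0.25, nearly identical copies between which reads can be split, Hsp90aa1 by 0.90 ± 0.23, Dnajb4 by 1.02 ± 0.23 and Dnaja1 by 0.53 ± 0.15. Hspa1a ranged from 211 to 2366 CPM in members and from 87.4 to 1103 CPM in FBs with none, and PBMCsec 1 was highest in both classes. The libraries outside the fit went the other way, with Hspa1a at 128 CPM in members against 277 CPM in FBs with none of PBMCsec 2 and at 47.0 against 281 CPM in vehicle 2, and Hspa1b at 346 against 408 CPM and 35.3 against 460 CPM. With all 8 libraries neither was called (Hspa1a 0.98, edgeR adjusted p = 0.131, and Hspa1b 1.01, adjusted p = 0.154). Of 11 tested genes of oxidative stress and hypoxia 5 rose and 0 fell, namely the metallothionein gene Mt2 (2.26 ± 0.38), the haem oxygenase gene Hmox1 (2.73 ± 0.46), Txnrd1 (1.59 ± 0.31), Vegfa (1.35 ± 0.31) and the glucose transporter gene Slc2a1 (1.76 ± 0.42). Hmox1 was at 1022 CPM in members of PBMCsec 1, at 212 and 209 in PBMCsec 3 and 4, and at 24.4 to 112 in the vehicle libraries, where 2 of 3 libraries were lower in members. Without PBMCsec 3 the calls of Junb (edgeR adjusted p = 0.0661), Klf6 (0.0673), Hsp90aa1 (0.19), Dnajb4 (0.17), Dnaja1 (0.208), Txnrd1 (0.11) and Vegfa (0.14) were lost. Without PBMCsec 1 those of Hsp90aa1 (0.0527), Dnajb4 (0.134), Dnaja1 (0.0697), Txnrd1 (0.0647), Vegfa (0.0659) and Slc2a1 (0.129) were lost, without vehicle 3 those of Hsp90aa1 (0.133) and Dnaja1 (0.201), and without PBMCsec 4 (0.0661) or vehicle 1 (0.083) that of Dnaja1. The part that dissociation of the tissue had in these genes was not tested.

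Of 12 tested hyaluronan and matricellular genes 5 rose, and of 7 tested prostaglandin genes 2. Has1, a hyaluronan synthase, was at 790, 530 and 436 CPM in members of PBMCsec 1, 3 and 4 and at 147, 129 and 110 CPM in those of vehicle 1, 3 and 4. FBs with none held 7.80 to 81.6 CPM, and the log2 difference was 3.66 ± 0.38 (SE, edgeR adjusted p = 4.16e-05). Tnfaip6, which crosslinks hyaluronan and binds pentraxin 3, was at 1407 ± 815 CPM in members and 217 ± 137 in FBs with none (SD, n = 6, log2 difference 2.74 ± 0.24), without overlap. Has2 (1.38 ± 0.30), the hyaluronan receptor gene Cd44 (1.70 ± 0.24) and Cyr61 (0.68 ± 0.16) completed the 5 that rose, and 0 fell. Ptgs2, the inducible cyclooxygenase, was at 1122, 480 and 305 CPM in members of PBMCsec 1, 3 and 4 and at 156, 94.7 and 48.9 in those of vehicle 1, 3 and 4, against 10.9 to 33.8 in FBs with none (log2 difference 3.84 ± 0.33). Ptgis, the prostacyclin synthase, rose by 1.02 ± 0.28, and the other 5 tested genes of this list were not called. Of 13 tested proteases and inhibitors 5 rose and 0 fell. Among them were the inhibitor gene Timp3 (0.74 ± 0.12), the urokinase gene Plau (0.92 ± 0.21) and the aggrecanase-type proteases Adamts1 (1.3 ± 0.25) and Adamts4 (2.18 ± 0.35). Without PBMCsec 1 the calls of Has2 (edgeR adjusted p = 0.0751), Ptgis (0.19) and Plau (0.0707) were lost, and without PBMCsec 3 those of Has2 (0.165), Cyr61 (0.105), Ptgis (0.142) and Plau (0.0923). Without vehicle 3 those of Ptgis (0.208) and Plau (0.0709) were lost, and without vehicle 4 that of Ptgis (0.0698).

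The remaining genes among the 10 largest rises that were consistent across libraries were the transcription factor gene Csrnp1 (3.86 ± 0.28, 108 against 8.54 CPM), and Gm12840, a gene model without a described function (3.44 ± 0.34, 287 against 27.9 CPM). In FBs with none, Csrnp1 was between 2.78 and 22.5 CPM and Adamts4 between 9.71 and 37.3 CPM. Such genes had the counts to be tested mainly through members, so the numbers of rises on the lists are also a description. Of the 315 genes, 215 reached 20 CPM in the higher class and were higher in members of all 6 libraries (101 genes) or of none (114 genes), where a tie at 0 counts as not higher. The classes did not overlap for 1.90% of all tested genes.

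Of 6 tested contractile genes 3 were lower and 0 higher in members, with a median log2 difference of -1.39. Acta2, the smooth muscle actin of myofibroblasts, was at 10.7, 24.2 and 26.1 CPM in members of PBMCsec 1, 3 and 4 and at 0, 0 and 12.2 CPM in those of vehicle 1, 3 and 4. FBs with none held 38.3, 126 and 175 CPM and 38.1, 130 and 205 CPM in the same libraries. The classes did not overlap, and Acta2 fell by 2.93 on the log2 scale (SE 0.35, edgeR adjusted p = 0.000152), on 23 UMIs in members. Mylk, the myosin light chain kinase, fell by 2.67 (SE 0.38, 33 UMIs in members) and Tpm2, a tropomyosin, by 1.97 (SE 0.27, 23 UMIs). In FBs with none, Acta2, Mylk and Tpm2 held 1330, 1136 and 655 UMIs. They had the counts to be tested mainly through that class, so the number of falls on this list is a description. Tpm1, the most abundant gene of the list, was at 185 against 249 CPM and was not called. Summed pericyte and smooth muscle markers were also at lower levels in members, 15.1 against 50.0 CPM, and their part in this result was not tested. Over pooled cells, Acta2 was found in 4.39% of cells with Ptx3 and Ccl2 and in 0% of those with Ptx3 and Il6, but in 17.2% of the 29 cells with all 3 genes and 30.8% of the 13 with Ccl2 and Il6, against 12% of cells with none. Other large falls were spread over several functions. Ppp1r14a, an inhibitor of myosin phosphatase, fell by 2.70 (SE 0.38), the endothelin receptor gene Ednra fell by 2.46 (SE 0.39) and the water channel gene Aqp1 fell by 2.47 (SE 0.52). The membrane protease gene Mme fell by 2.46 (SE 0.34), the Wnt modulator gene Dkk2 fell by 2.38 (SE 0.41) and the hedgehog receptor gene Ptch1 fell by 2.25 (SE 0.43). Myoc fell by 2.27 (SE 0.44) and Plxdc1 fell by 2.27 (SE 0.48). Among these, leaving out PBMCsec 1 ended the call of Myoc (edgeR adjusted p = 0.0774). Each of these other large falls rested on 11 to 39 UMIs in members and also had the counts to be tested mainly through FBs with none. Some falls could not be tested with a library left out. Among them were Acta2, Ppp1r14a, Mme and Ednra without PBMCsec 3, Mme without PBMCsec 1 and Ppp1r14a without PBMCsec 4. In vehicle 1 Ppp1r14a was at 0 in both classes. In the libraries outside the fit, some went the other way. Vehicle 2 held Mme at 329 CPM in members against 17.0 CPM in FBs with none, Dkk2 at 118 against 34.1 CPM and Ppp1r14a at 82.3 against 0 CPM, and PBMCsec 2 held Tpm2 at 228 against 34.5 CPM.

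Of 14 tested collagen genes outside the rule, Col15a1 fell by 1.08 (SE 0.26) and no other was called, and the median log2 difference was -0.24. Of 19 tested matrix genes 3 were called (5.11% of all tested genes were), and 5 had positive log2 differences. Mfap4 fell by 1.67 (SE 0.36), Mfap2 by 0.60 (SE 0.15) and Mfap5 rose by 0.58 ± 0.15. With all 8 libraries the calls of Mfap4 (-1.4, edgeR adjusted p = 0.103) and Mfap5 (0.46, 0.08) were lost. Outside the fit, PBMCsec 2 held Mfap4 at 874 CPM in members against 180 CPM in FBs with none, and vehicle 2 at 129 against 1031 CPM. Genes of complement (8 tested), interferon response (11 tested) and growth factors (6 tested) held no called gene. The calls of Col15a1, Mfap2 and Mfap5 were each lost without PBMCsec 1 (edgeR adjusted p = 0.0578, 0.0743 and 0.0984) or PBMCsec 3 (0.151, 0.0643 and 0.132) and without vehicle 3 (0.0964, 0.0564 and 0.143). Without vehicle 4 Mfap2 (0.0866) and Mfap5 (0.0927) were lost, without PBMCsec 4 Mfap2 (0.069) and without vehicle 1 Mfap5 (0.054). C3, the most abundant complement gene, was at 2691 CPM in members and 1838 CPM in FBs with none (log2 difference 0.59 ± 0.18, edgeR adjusted p = 0.0696).

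Pi16- and Dpp4-positive FBs are known from the fascia and adventitia as a progenitor state. Of 10 tested genes of that list 4 rose and 0 fell, and all 10 were positive, with a median of 0.64. They were Anxa3 (1.06 ± 0.17), Sema3c (0.67 ± 0.17), Efhd1 (1.16 ± 0.25) and Limch1 (1.37 ± 0.29). Pi16 itself was at 3542 against 2335 CPM (log2 difference 0.61 ± 0.17, edgeR adjusted p = 0.0524) and Dpp4 at 477 against 335 CPM (0.48 ± 0.18, adjusted p = 0.149). Of the lists of other FB classes, Angptl1 fell by 1.37 (SE 0.38) among 6 tested genes of the Mgp class, and Tnmd fell by 1.45 (SE 0.24) and Enpp2 fell by 0.99 (SE 0.20) among 5 of the reticular class. Of 10 general FB genes, the podoplanin gene Pdpn rose by 0.78 ± 0.18 and the PDGF receptor gene Pdgfrb fell by 0.71 (SE 0.17). The 2 tested genes of the follicle-associated class were not called. Without the filter on low counts, 6 of 9 tested genes of that class were lower in members (median -3.65). The Mgp and reticular lists then had 4 of 8 lower each. Over all 16963 genes of that fit, 318 were lower. Without PBMCsec 1 the calls of Sema3c (edgeR adjusted p = 0.111), Pdpn (0.0788) and Pdgfrb (0.1) were lost, and without PBMCsec 3 the same 3 (0.0996, 0.0944 and 0.0794). Without vehicle 3 those of Sema3c (0.136), Efhd1 (0.0593), Pdgfrb (0.111) and Angptl1 (0.143) were lost, without vehicle 4 those of Sema3c (0.0631), Pdgfrb (0.0591) and Angptl1 (0.113), and without PBMCsec 4 that of Angptl1 (0.0603).

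Further calls of named genes did not hold in every setting. In the vehicle libraries alone those of Mt2 (0.97, edgeR adjusted p = 0.0504), Vegfa (0.38, 0.679), Junb (0.64, 0.176), Hsp90aa1 (0.79, 0.0817), Dnaja1 (0.6, 0.172), Cd44 (0.83, 0.131), Cyr61 (0.35, 0.489), Adamts1 (0.72, 0.112), Pdpn (0.37, 0.554) and Mfap2 (-0.71, 0.106) were lost. In the PBMCsec libraries alone those of Sema3c (0.48, edgeR adjusted p = 0.298), Efhd1 (0.7, 0.133), Limch1 (1.03, 0.0892), Ptgis (0.92, 0.064), Il4ra (0.52, 0.198), Dnaja1 (0.47, 0.211), Mfap5 (0.37, 0.398), Mfap2 (-0.51, 0.188), Col15a1 (-0.9, 0.0951), Pdgfrb (-0.53, 0.212), Angptl1 (-0.44, 0.321), Enpp2 (-0.68, 0.0952) and Aqp1 (-1.68, 0.0823) were lost. DESeq2 did not call Ptgis (adjusted p = 0.0723). Only 118 of the 315 genes could be tested with cells thinned to 2000 UMIs, in the classes read at full depth, and 71 were still called. Has1, Ptgs2, Csrnp1, Gm12840, Acta2, Mylk and Ppp1r14a were among those that could not be tested. After thinning to 2000 UMIs the calls of Csf1 (0.66, edgeR adjusted p = 0.141), Il4ra (0.47, 0.321), Timp3 (0.48, 0.142), Plau (0.72, 0.0724), Cyr61 (0.43, 0.23), Sema3c (0.49, 0.184), Pdpn (0.55, 0.154), Hsp90aa1 (0.6, 0.18), Dnaja1 (0.13, 0.751), Mfap5 (0.25, 0.479), Mfap2 (-0.43, 0.311) and Pdgfrb (-0.86, 0.0848) were lost as well. With a mitochondrial limit of 5%, which left 3 libraries, those of Myoc (-1.53, edgeR adjusted p = 0.139), Aqp1 (-1.73, 0.174), Ednra (-1.73, 0.0617), Enpp2 (-0.44, 0.431) and Angptl1 (-0.81, 0.232) were among those lost, and with a collagen limit of 0.5% those of Myoc (-1.1, 0.13), Mfap4 (-1.26, 0.109), Tpm2 (-1.14, 0.0738) and Dnaja1 (0.44, 0.139). Without the library as a block Myoc (-2.39, edgeR adjusted p = 0.087) and Aqp1 (-2.72, 0.0514) were among the calls lost. So were Hspa1a (1.53, 0.213), Hspa1b (1.4, 0.263), Hsp90aa1 (0.88, 0.304), Socs3 (1.42, 0.107) and Csf1 (1.06, 0.131). The same held for Klf6 (0.98, 0.142), Plau (0.98, 0.0638), Mfap4 (-1.35, 0.269) and Tnmd (-1.25, 0.191).

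Against FBs with exactly 1 of the 3 genes, 65 of 4903 tested genes were higher and 7 lower in members, 1.47% in all. Cxcl1 (3.82), Ccl7 (2.15), Nfkbia (2.11), Tnfaip3 (2.34), Tnfaip6 (1.64), Has1 (2.70) and Ptgs2 (2.81, log2 differences) were among those called. Of the fascia list genes, Anxa3 was at 0.09 (edgeR adjusted p = 0.898) and Sema3c at 0.14, and neither passed the threshold. Cxcl1 was least frequent in cells with none and most frequent in cells with all 3 genes. It was found in 8.52% of the 1385 cells with none, 17.6% of the 295 cells with Ptx3 alone, 31.5% of the 127 with Ccl2 alone, 70.2% of the 114 with Ptx3 and Ccl2 and 93.1% of the 29 with all 3. The 13 cells with Ccl2 and Il6 but no Ptx3 were lower for some genes, with Cxcl1 in 23.1%, Pi16 in 61.5% and Dpp4 in 46.2%. Among the 114 cells with Ptx3 and Ccl2, 97.4% held Pi16 and 86.8% Dpp4. For other genes the 13 cells were no lower than all 181 members. They held Ccl7 in 84.6%, Nfkbia in 100% and Tnfaip6 in 92.3%, against 76.8%, 92.3% and 91.7% of members. Depth differed between the classes of cells, and with each cell thinned to 2000 UMIs, Cxcl1 was found in 54.0% of 176 members, 10.3% of 419 cells with a single gene and 3.64% of 1290 cells with none. The classes here were those read at full depth, so the part of depth in class membership remains. With the 3 genes read after thinning, 86 cells were members. Thinned shares for Nfkbia were 76.1%, 37.7% and 19.5%. Single-gene cells did not lie between the classes for every gene, with thinned shares for Pi16 of 86.9%, 89.0% and 77.1% and for Mgp of 9.66%, 6.21% and 12.9% in the same order. The shares are over cells pooled across libraries and are a description.

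**Figure D3:**
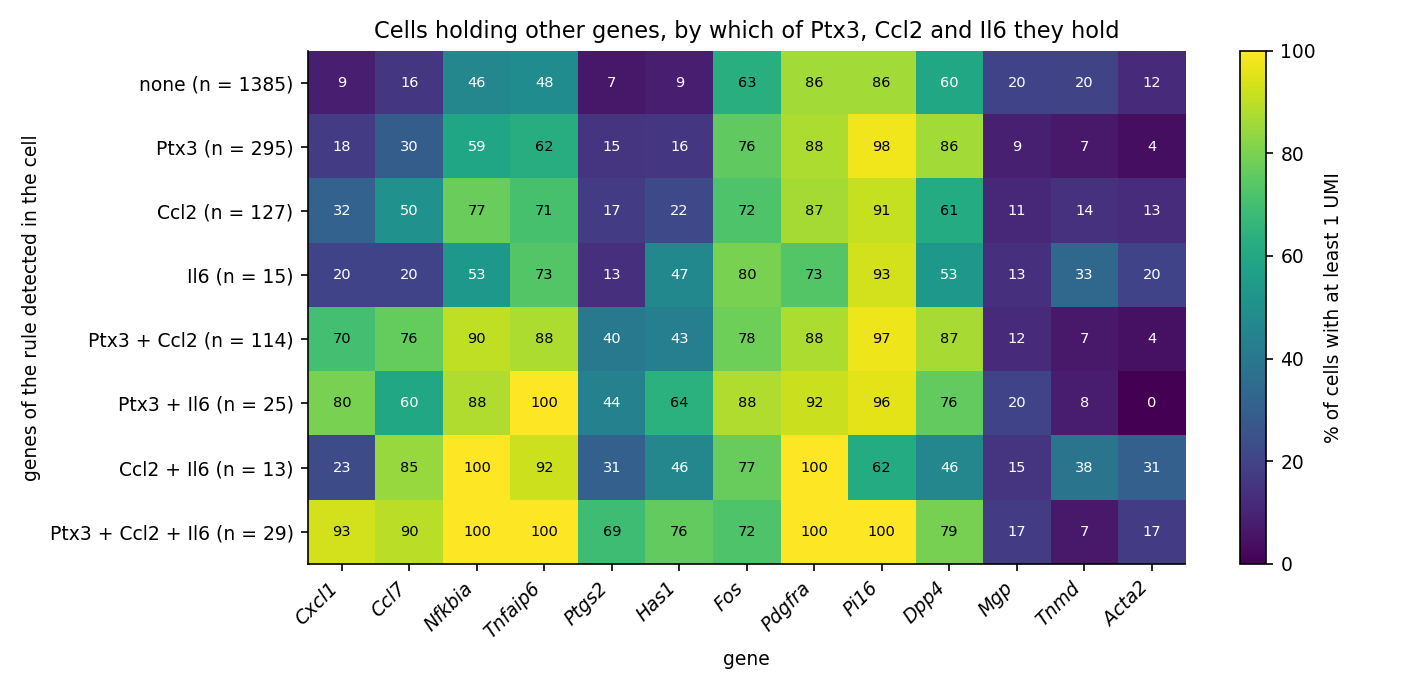
Percentage of gated FBs with at least 1 UMI of each gene (columns), by which of Ptx3, Ccl2 and Il6 the cell held (rows, with the number of cells pooled over 8 libraries). Cxcl1 goes from 8.52% in cells with none to 93.1% in cells with all 3, while Pdgfra lies between 73.3% and 100% in every row.

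**Figure D4:**
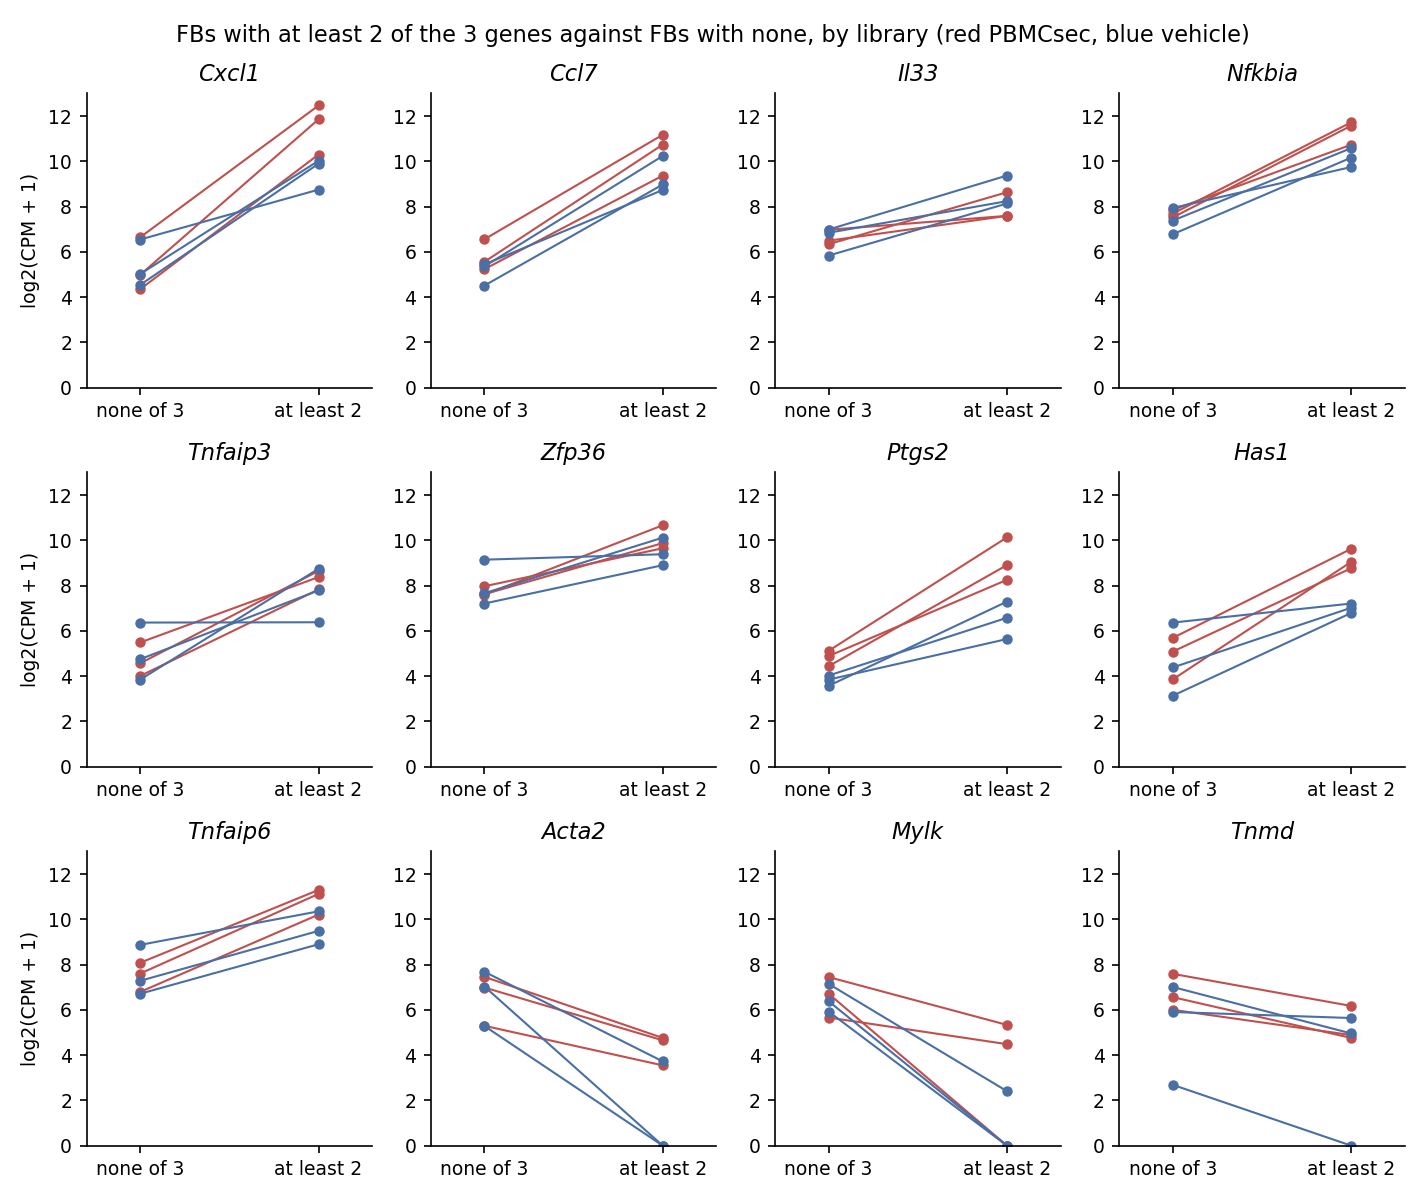
Summed expression (log2 of CPM + 1, y axes) in FBs with none of the 3 genes and in FBs with at least 2 (x axes) for 12 genes, each line 1 of the 6 libraries in the fit (red PBMCsec, blue vehicle). Cxcl1, Ccl7, Il33, Nfkbia, Ptgs2, Has1 and Tnfaip6 are higher, and Acta2, Mylk and Tnmd lower, in members of all 6 libraries.

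Markers of other cell types were mostly too low to test. Of 8 lists of such markers, 0 genes were called in either direction by edgeR, and 14 of the 77 listed genes were tested. Without the filter on low counts 2 were higher, 1 each on the T lymphocyte and the glial and melanocyte lists, and 2 lower. Summed keratinocyte markers were at 349 ± 145 CPM in members and 555 ± 424 in FBs with none (SD, n = 6), with Lgals7 the most abundant. Endothelial markers were at 52.6 ± 18.4 against 57.2 ± 22.3 CPM, led by Kdr, with 6 of 10 at 0 in members. Pericyte and smooth muscle markers were at 15.1 ± 19.2 against 50.0 ± 9.79 CPM, led by Abcc9, with 2 of 8 at 0. Macrophage and dendritic cell markers were at 38.5 ± 18.4 against 53.3 ± 17.8 CPM, led by H2-Ab1. Mast cell and neutrophil markers were at 5.41 ± 10.1 against 23.5 ± 47.7 CPM, with 6 of 10 at 0 in members. Glial and melanocyte markers were at 86.3 ± 74.9 against 77.5 ± 39.0 CPM. The T lymphocyte list (709 against 573 CPM) was nearly all Thy1 and the adipocyte list (1348 against 1227 CPM) nearly all Lpl, genes that FBs express. Without the cells in which such markers exceeded 1% of UMIs, 192 genes were higher and 145 lower, and the call of Il1r1 was lost (0.65, edgeR adjusted p = 0.127).

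PBMCsec and vehicle were then compared within the members, in the same 6 libraries. Of 2836 genes tested, 8 (0.282%) were called at an edgeR adjusted p under 0.05, all higher after PBMCsec, and the median log2 difference over all tested genes was 0.19. This comparison rests on 115 members after PBMCsec and 49 after vehicle. Of the 8 genes, Bcl3, Socs3, Ets2 and Wisp2 had the counts to be tested mainly through the PBMCsec libraries. The single direction of the calls is therefore a description. In members of vehicle 1, 3 and 4, Socs3 held 3, 11 and 3 UMIs, Ets2 held 1, 6 and 2, and Wisp2 held 4, 5 and 3. The make-up of the class differed between the groups. Over all 8 libraries, 56 of 124 members held Il6 after PBMCsec and 11 of 57 after vehicle, and Has1 was found in 75.9% of cells with all 3 genes and 43.0% of those with Ptx3 and Ccl2. The part of this in the treatment differences was not tested. With the library number as a replicate block 43 genes were called, 38 higher and 5 lower, and all 8 were among them. Without any of vehicle 1, 3 or 4 no gene was called, and without PBMCsec 4 there were 95. In FBs with none, 0 of 9412 genes (0%) were called by edgeR and 0 by DESeq2, with 171 genes at an unadjusted p under 0.05 by edgeR.

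Of the gene lists, the NF-kB, the STAT3 and C/EBP, the immediate-early and the hyaluronan list held 1 of the 8 genes each. Bcl3, an atypical IkB protein, was at 118, 133 and 122 CPM in members of PBMCsec 1, 3 and 4 and at 9.16, 12.9 and 12.2 CPM in those of vehicle 1, 3 and 4 (log2 difference 3.35 ± 0.46, edgeR adjusted p = 0.00896), on 5 UMIs in vehicle. Socs3 was at 397, 192 and 192 CPM against 27.5, 47.4 and 36.7 CPM (2.72 ± 0.45, edgeR adjusted p = 0.0250). Has1 followed with 2.17 ± 0.36 (edgeR adjusted p = 0.0250), from the values given above. Ier3, an early-response survival gene, was at 608 ± 239 against 115 ± 52.8 CPM (2.37 ± 0.43) and the transcription factor gene Ets2 at 126 ± 37.6 against 19.8 ± 9.25 CPM (2.57 ± 0.47, SD, n = 3). The groups of 3 libraries did not overlap for these genes. They were called on the same libraries, and the share without overlap over all tested genes was not computed, so this is a description.

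Gas6, a ligand of TAM receptors, was at 711, 420 and 270 CPM in members after PBMCsec and at 64.1, 43.0 and 48.9 CPM in those after vehicle (log2 difference 3.20 ± 0.45). In FBs with none it was at 963, 479 and 657 against 196, 765 and 350 CPM, and members lay below FBs with none in all 6 libraries. Cilp, a matrix protein gene, was at 1062, 282 and 836 CPM against 0, 77.5 and 24.4 CPM (4.09 ± 0.70), and Wisp2, also known as Ccn5, at 148 ± 29.2 against 31.6 ± 8.73 CPM (2.28 ± 0.42, SD, n = 3). The libraries with too few members for the fit did not follow the groups for every gene. Vehicle 2 was at 282 CPM for Socs3, 318 for Ets2, 506 for Cilp and 118 for Wisp2, within or above the range of PBMCsec 1, 3 and 4, while its Has1 (47.0 CPM) and Gas6 (11.8 CPM) lay below that range. PBMCsec 2 was at 45.5 CPM for Socs3, within the range of vehicle 1, 3 and 4, and its Bcl3 (36.4 CPM) lay below that of vehicle 2 (58.8 CPM). With all 8 libraries 5 genes were called, 2 of them among the 8.

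**Figure D5:**
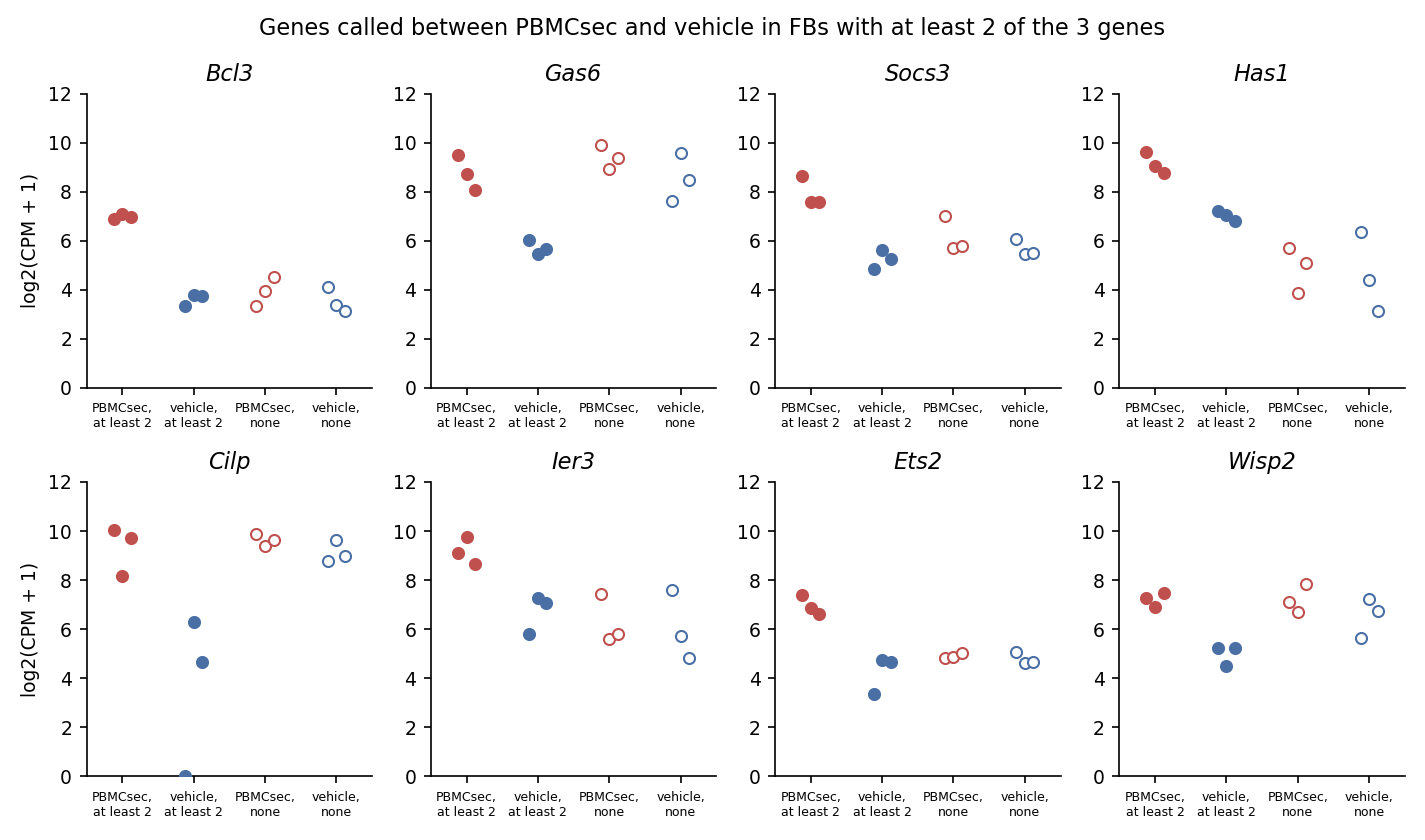
The 8 genes called between PBMCsec and vehicle in members (log2 of CPM + 1, y axes) in the 6 libraries of the fit, for members (filled) and for FBs with none of the 3 genes (open), PBMCsec in red and vehicle in blue. The filled red and blue points do not overlap for any of the 8 genes, which were called on these same libraries. PBMCsec 2 and vehicle 2 are not drawn. Members of vehicle 2 lay within or above the range of the filled red points for Socs3, Ets2, Cilp and Wisp2. They lay below it for Bcl3, Has1, Ier3 and Gas6.

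Whether the difference between members and FBs with none itself differed between treatments was tested as an interaction. Of 7200 genes tested, 24 (0.333%) were called at an edgeR adjusted p under 0.05, all with a higher signed log2 difference (members minus none) after PBMCsec than after vehicle, and 3 of them, Gas6, Socs3 and Cilp, were also among the 8. By mean CPM, members lay below FBs with none for 21 of the 24 after vehicle and for 9 after PBMCsec. Some of the 24 stood above FBs with none in members of PBMCsec libraries. Tnfaip6 was at 1980 ± 704 CPM in members after PBMCsec and 835 ± 429 after vehicle (SD, n = 3), against 191 and 242 CPM in FBs with none (interaction 1.43 ± 0.28 on the log2 scale). Icam1 was at 506 ± 266 against 73.9 ± 58.3 CPM (2.01 ± 0.43) and Mt2 at 756 ± 467 against 169 ± 24.9 CPM (2.19 ± 0.43). Thbs1, encoding thrombospondin-1, was at 357 ± 123 against 99.6 ± 86.3 CPM (2.47 ± 0.35).

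Others of the 24 were low in members of vehicle libraries. Of 6 tested genes of the Mgp class of FBs, 3 (Mgp, Apod and Angptl1) were among the 24, and the 6 had positive log2 differences between treatments in members (median 1.64, against 0.19 over all tested genes), of which 0 were called by edgeR. Of 10 fascia list genes 1 had a positive difference (median -0.57) and 0 were called. The part of these values in the treatment differences was not tested. Mfap4 was at 769 ± 272 CPM in members after PBMCsec and 86.4 ± 96.9 after vehicle, against 1384 and 901 CPM in FBs with none (2.39 ± 0.42). Apod was at 806 ± 438 against 185 ± 164 CPM (2.08 ± 0.40), Angptl1 at 186 ± 144 against 29.0 ± 17.6 CPM (2.80 ± 0.47) and Igf1 at 448 ± 68.1 against 91.7 ± 94.9 CPM (2.39 ± 0.48). Hk2 (4.45 ± 0.66), Ndrg1 (3.16 ± 0.50), Ldha (1.45 ± 0.32) and Slc2a1 (2.65 ± 0.55) were also among the 24. The members of the vehicle libraries in this fit are 49 cells with 426795 UMIs in all, and 8 of the 24 genes had under 10 UMIs there. FBs with none of vehicle 1, 26 cells, stood apart for some of these, with Hk2 at 207 CPM and Ndrg1 at 609 CPM against 4.78 to 14.6 and 69.7 to 108 CPM in the other 5 libraries. Vehicle 2, outside the fit, held Mt2 at 1400 CPM and Tnfaip6 at 2246 CPM in its 8 members, above the 3 vehicle libraries of the fit. Without vehicle 1 there were 16 called genes, 14 of them among the 24, and with all 8 libraries 5, all among the 24.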

How the data were processed

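For each of the 8 libraries the authors deposited a matrix of UMI counts, made with Cell Ranger 3.0.2 as the file headers and the submitters' processing notes give it, on mm10. The study's methods name another version of Cell Ranger. The deposited counts were used as they are. The limits on genes, UMIs, mitochondrial share and marker genes are those given at the opening of the report. No doublet caller was run, and doublets were limited only by the upper limits on genes and UMIs and by the limits on Ptprc and Rgs5.

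Counts were summed per library and class of cell and tested with edgeR 4.0.16 in R 4.3.3 (TMM scaling, filterByExpr, quasi-likelihood test, Benjamini-Hochberg adjustment, calls at an adjusted p under 0.05), with a minimum of 10 cells per library and class and the library as a block where classes were compared. DESeq2 1.42.0 was an alternative. Shares were compared with an exact two-sided permutation test over the 70 labellings of the libraries, whose smallest p is 0.0286. The members and gene lists were chosen with earlier results of these data known. By rule the text names up to 5 genes of each list (called genes first, by mean CPM), the 10 largest rises and 10 largest falls among genes called between members and none that were higher in members of every library or of none (a tie at 0 counting as not higher) and reached 20 CPM, and up to 10 genes called between treatments in members. Interaction genes, the most abundant genes of some lists and markers of FBs and other cells named beside these were chosen after their values were seen. Deviations of same-numbered libraries from their group means were weakly correlated in members (r over genes 0.159, 0.111, 0.239 and 0.239 for numbers 1 to 4). In FBs with none, number 2 gave 0.0121. Libraries of different numbers were not compared in this way, so these values do not show that the numbers mark pairs. The value with the number as a block is printed beside the treatment comparison in members. On simulated data the comparison of members with none recovered 64.5% of 2-fold and 97.0% of 4-fold changes over 6209 genes, and the treatment comparison in members 0% and 92.5% over 2864 genes. The values of 1 gene are not reported here.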

Additional observations from a re-analysis of the deposited data

Results flagged for a closer look

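A difference between classes that itself differed between treatments was called for 24 of 7200 genes, which is why they are listed for a closer look. All 24 had a higher signed log2 difference of members minus none after PBMCsec, by mean CPM members lay below FBs with none for 21 of them after vehicle and for 9 after PBMCsec, and DESeq2 called 26 genes, 17 of them the same. The part of the dissociation, of depth and of the small number of vehicle members in these differences was not tested.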

How the results depend on the processing

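The difference in the share of members between treatments had no stable direction. From -0.574 percentage points it turned to 1.83 with all 3 genes required, to 3.05 after thinning to 2000 UMIs, to 1.32 with a collagen limit of 0.5% and to 3.0 with Pdgfra or Dcn in place of the collagen limit (both chosen after seeing the data), and it ranged from -3.33 to 2.22 with each replicate left out. It stayed negative at -11.0 with at least 1 of the 3 genes, -8.04 with a collagen limit of 3%, -2.54 with a mitochondrial limit of 5%, -0.546 without cells rich in other markers and -2.39 without upper limits on genes and UMIs (chosen after seeing the data). It was -0.574 with the replicate block as well (exact p = 1.0). Genes called between members and FBs with none (315) became 711 without the filter on low counts, 113 after thinning, 72 against FBs with exactly 1 gene, 189 without the library block, 636 with a collagen limit of 0.5%, and 123 to 400 with a replicate left out, lowest without PBMCsec 3. Tnmd reversed to 0.18 against FBs with exactly 1 gene. Among the individually named called genes that could be tested, 32 kept and 17 lost their call in the vehicle libraries alone, 58 kept and 13 lost it in the PBMCsec libraries alone, 45 kept and 24 lost it without PBMCsec 1, and 33 kept and 25 lost it without PBMCsec 3. Genes called between treatments in members (8) became 32 with DESeq2, 154 without the filter, 5 with all libraries, 158 with a mitochondrial limit of 5% (3 libraries left), 13 with a collagen limit of 0.5%, 43 with the replicate block, and 0 to 95 with a replicate left out. All 8 kept their direction wherever they were tested. Interaction genes (24) became 100 without the filter, 5 with all libraries, 82 with a mitochondrial limit of 5%, 8 with a collagen limit of 0.5%, and 10 to 96 with a replicate left out. The replicate block changed no call in FBs with none or in all gated FBs. With 8 to 12 members in 5 of 8 libraries, 2-fold treatment differences could not be seen.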
